A study of Mus musculus with 8 samples.

Results

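The T-cell receptor gamma locus was examined in 4 ATAC-seq libraries of mouse DN3 thymocytes, each with its own peak list. The members were all peaks that overlapped chromosome 13 from 19150000 to 19400000 (mm10, GRCm38), a window of 250 kb. It held 64 and 57 peaks in the wild-type lists (replicates 1 and 2, the order used throughout) and 56 and 49 in the mutant lists. Merging overlapping peaks of the 4 lists gave 60 regions, of 180321 regions over the genome. ATAC-seq marks open chromatin by inserting adapters with a transposase. DN3 thymocytes are immature T cells without CD4 or CD8 in which antigen receptor genes are joined. All cells were C57BL/6. The wild-type group was NMe wild type, where N-Me is a Notch-driven enhancer of Myc on another chromosome. The mutant group was homozygous mutant for NMe GATA site 1 and 2, with no other allele or treatment named for either group. Each group had 2 libraries. The labels give no age or sex and do not name the animals behind the replicates, so p-values reflect the spread among these libraries, which may be technical. The series also has 4 leukaemia samples, not analysed here.

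The locus encodes the gamma chain of the gamma-delta T-cell receptor. V, J and C segments lie in 4 clusters. A V segment is joined to a J segment by the RAG recombinase, and joining removes the DNA between segments that lie in the same orientation. Opening of the J segments and of the enhancers found on the far side of the C segments is known to need interleukin 7 receptor signalling through STAT5, and Runx factors and E proteins are known to act on these enhancers. V segments are used in waves: Trgv5 and then Trgv6 in the fetal thymus, Trgv4 and Trgv1 in later life, and Trgv7 in the intestinal epithelium. In bulk chromatin, fewer cells with an open site and less opening in each cell cannot be told apart.

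RefSeq sequence (GRCm38.p6) was at hand for 2 promoters of the window, of the long non-coding RNAs Gm31887 and Gm40827. They are shown because one lay under the strongest peak of the window and the other, inside the receptor locus, under none. Each runs from 250 bases before to 50 after a transcription start. The Gm31887 promoter, chr13:19193634-19193933 on the minus strand, had 0 CpG sites, and capitals mark its match to the Runx motif. The Gm40827 promoter, chr13:19395597-19395896 on the plus strand, had 29 CpG sites, marked in capitals, against a median of 7 over 32817 promoters.
Gm31887: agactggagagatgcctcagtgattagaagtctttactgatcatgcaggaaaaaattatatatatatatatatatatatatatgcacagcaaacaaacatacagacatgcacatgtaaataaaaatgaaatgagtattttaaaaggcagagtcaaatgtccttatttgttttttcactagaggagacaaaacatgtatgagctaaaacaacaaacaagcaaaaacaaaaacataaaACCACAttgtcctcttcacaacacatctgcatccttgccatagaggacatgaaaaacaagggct
Gm40827: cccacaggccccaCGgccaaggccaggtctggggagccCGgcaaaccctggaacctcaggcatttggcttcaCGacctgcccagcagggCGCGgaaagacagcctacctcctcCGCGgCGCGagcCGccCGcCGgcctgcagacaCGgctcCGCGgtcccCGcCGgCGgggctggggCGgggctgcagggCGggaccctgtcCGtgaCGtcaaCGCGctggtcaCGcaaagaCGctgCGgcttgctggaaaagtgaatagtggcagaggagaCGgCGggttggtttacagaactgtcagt

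Exact matches were counted on both strands. Neither promoter held a GATA motif (AGATAA or AGATAG, likewise TGATAA or else TGATAG, in 29.8% of all promoters), a STAT motif (TTCNNNGAA, 8.29%), an Ets motif (GGAAGT, 23.8%) or the recombination signal heptamer (CACAGTG, 6.81%). The Runx motif (TGTGGT or TGCGGT, 22.4%) had 1 match in the Gm31887 promoter and 0 in the other. E-boxes (CANNTG, 72.3%) had 3 and 1 matches. These letters were matched as text and do not show that a factor was bound.

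Each list held 119023 to 169255 peaks on chromosomes 1 to 19, X and Y. The wild-type lists had more and shorter peaks than the mutant lists, the median width being 284 and 302 bp, and 444 and 421 bp in mutant. Neighbouring peaks came no closer than 257 and 261 bp in wild type, and 293 and 349 bp in mutant, so mutant lists joined peaks over longer gaps. Peak lists hold no read counts, and the depth of each library is unknown. Where a list has no peak, opening was not detectable at that depth. The authors' fold enrichment of a peak (the library's pileup over its local background) belongs to its own list, so folds of the 4 lists are given side by side, and a difference between them is not read as a difference between genotypes.

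Most regions of the locus were called in every library. Of the 60 regions, 44 (73.3%, exact 95% interval 60.3 to 83.9) were called in all 4 libraries, against 56.7% of all regions over the genome. The share lay below that of the genome with −log10 q of 5 or more (57.8%, against 64.9%), with fold of 4 or more (26.3%, against 54.0%) and with equal numbers of peaks per list (63.6%, against 64.7%). The wild-type pair alone had 2 regions, and the mutant pair alone had 3. Another 4 were called in both wild-type libraries and mutant 1, and 1 in both mutant libraries and wild type 2. The remaining 6 were called in 1 library of each genotype (2 regions), in wild type 1 alone (2) or in mutant 1 alone (2). All 16 regions that were not called in every library lay between Trgv7 and Trgc4, where 33 of 49 regions were called in all 4. The flanks, with 4 regions before Trgv7 and 7 after Trgc4, were called throughout. Intervals cover the counting of regions only, and neighbouring regions are not independent.

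**Figure D1:**
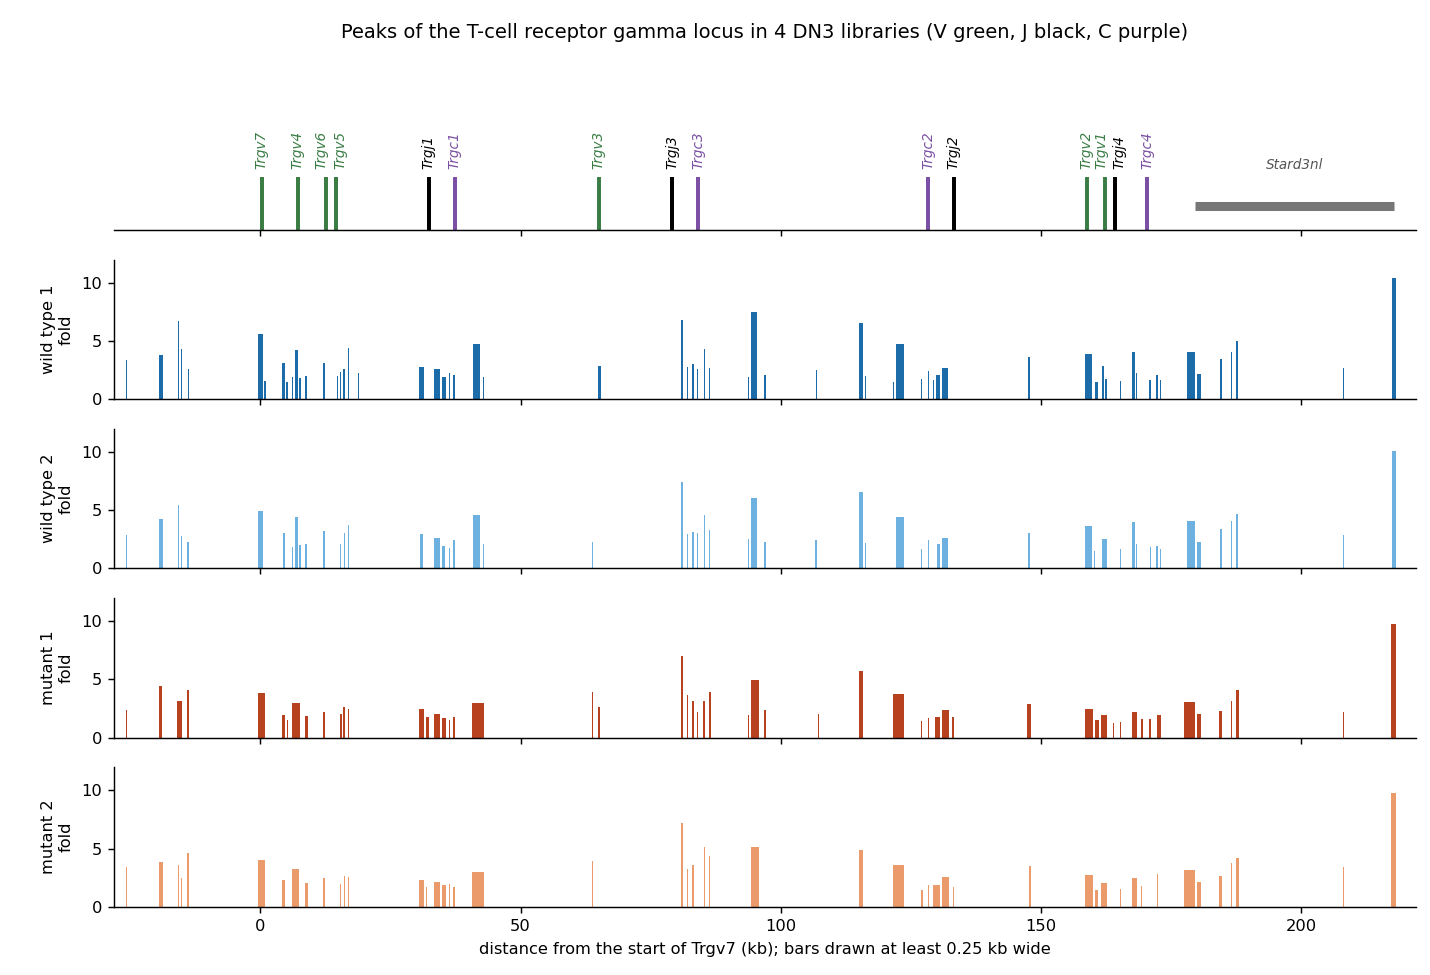
Peaks of the 4 DN3 libraries along the window, by distance from the start of Trgv7 (kb, horizontal) and the authors' fold enrichment (vertical, from 0), with V, J and C segments and Stard3nl drawn above. The same main peaks stand in all 4 libraries, the tallest at the end of Stard3nl farther from Trgc4, with fold 9.78 to 10.43. The J segments stand in gaps or beside low peaks.

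Of the 7 V segments, 4 (Trgv7, Trgv4, Trgv2 and Trgv1) overlapped a peak in all 4 libraries. Trgv7 lay wholly inside the peak of each library. Its region, 19177562 to 19178950, had fold 5.65 and 4.92 in wild type and 3.86 and 4.04 in mutant, with −log10 q of 136.07, 87.31, 101.97 and 91.59. It was among the 10 regions with the highest lowest fold of the 44. Trgv4, common in adult gamma-delta cells, lay in the region from 19184151 to 19185751. There the wild-type lists had 3 separate peaks, a main one of fold 4.24 and 4.45 between small ones of fold 1.84 to 2.05, and each mutant list had 1 long peak of fold 3.01 and 3.22. The outer ends of these stretches were close in wild type and mutant 1, while the mutant 2 peak stopped at 19185382.

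Trgv2 was wholly covered in all 4 libraries, by a region from 19336380 to 19337990 with fold 3.91 and 3.65 in wild type and 2.44 and 2.72 in mutant. Trgv1 lay in the region from 19339551 to 19340740, with fold 2.84 and 2.56 against 1.95 and 2.02. In wild type 1 this region held 2 peaks that covered 168 bp of Trgv1, and in the other libraries 1 peak covered all 439 bp of it.

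The fetal V segments were at or beyond the edge of peaks. At Trgv6 the peak, 19190085 to 19190401 over the 4 libraries, ended just at the start of the segment at 19190368. It covered 1, 34 and 2 bp of Trgv6 in wild type 1, wild type 2 and mutant 2, and stopped 1 bp short of it in mutant 1. Its fold was 3.11 and 3.18 in wild type and 2.22 and 2.44 in mutant. Trgv5 overlapped no peak in any library. The nearest peak lay 91 bp away in wild type 1, a 112 bp peak of fold 2.00 called in that library alone, and 696, 725 and 727 bp away in the others.

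Trgv3, the V segment of the Trgc3 cluster, overlapped a peak in 1 library of each genotype, wild type 1 (fold 2.83) and mutant 1 (2.59), so its call did not follow genotype. A region 847 bp before it, from 19241665 to 19241998, went the other way between replicates of wild type. It was called in wild type 2 with fold 2.28 and in both mutant libraries with fold 3.90 and 3.95, and not in wild type 1. The −log10 q was 1.58 in wild type 2, near the lowest value of the list (1.01), and 11.01 and 9.46 in mutant.

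Between and beyond the V segments, smaller regions were spaced out. An element termed HsA has been described between Trgv7 and Trgv4, and which peak it is cannot be told from the lists. That stretch had a region from 19182213 to 19182757, called in all 4 libraries with fold 3.15, 3.01, 1.92 and 2.33, and one from 19183104 to 19183303, called in wild type 1 (1.47) and mutant 1 (1.51). Beyond Trgv4, the region from 19186532 to 19187111 was called in all 4 libraries with fold 1.88 to 2.09.

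Past Trgv5 the lists held 3 regions called in all 4 libraries. They ran from 19193421 to 19193585 (fold 1.93 to 2.38), from 19193985 to 19194362 (2.60 to 3.08) and from 19194945 to 19195127 (2.5 to 4.43). The Gm31887 promoter printed above lies in the gap between the first pair: no library had a peak in it, and the nearest stood 67 and 72 bp away in wild type and 49 and 87 bp away in mutant. A region of 82 bp at 19196820 was called in wild type 1 alone (2.25), narrower than the shortest peak of mutant 2, 87 bp. Between Trgv2 and Trgv1, the region from 19338282 to 19339089 had fold 1.43 to 1.48 and counts as called in all 4 libraries, although the wild type 2 peak was 90 bp long and met the mutant peaks only at its last bases. Far from any V segment, 10509 bp before Trgv2, the region from 19325354 to 19326064 had fold 3.67 and 3.04 in wild type and 2.87 and 3.50 in mutant.

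J segments, the landing sites of V to J joining, overlapped peaks least often of the 3 kinds, but they are also the shortest, 60 to 61 bp against 439 to 562 bp for V and 2492 to 7786 bp for C segments, and the part of length in that order was not tested. None of the 4 overlapped a peak in all 4 libraries, and none overlapped a wild-type peak. At Trgj1 (19210343 to 19210402) both mutant lists held a weak region from 19209886 to 19210346, absent from both wild-type lists. Its peak in mutant 1 was 461 bp long with fold 1.77 and −log10 q of 6.37, and reached 4 bp into Trgj1. The mutant 2 peak was 109 bp long with fold 1.67 and −log10 q of 2.77, and ended 321 bp before it. The nearest wild-type peaks were 958 and 1078 bp away.

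At Trgj2 (19311245 to 19311304) the same call was made. The region from 19310914 to 19311292 was absent from both wild-type lists, whose nearest peaks were 1146 and 1161 bp away. The mutant 1 peak had fold 1.78 and −log10 q of 3.38 and covered 48 bp of Trgj2, and the mutant 2 peak, 103 bp long, had fold 1.67 and −log10 q of 1.53 and covered 15 bp. At Trgj4 (19342152 to 19342212), mutant 1 alone had a peak that ended 88 bp before the segment, with fold 1.28 and −log10 q of 1.67. The closest peaks of the other 3 libraries were 966 to 1018 bp away. At Trgj3 the nearest peaks were 1748 to 1765 bp away. The weak J-side peaks thus stood in both mutant lists at Trgj1 and Trgj2 and in 1 mutant list at Trgj4. At Trgj2 the mutant 2 value of 1.53 was near the lowest of its list (1.02). Over the genome, 1.75% of regions called in both mutant libraries had no wild-type peak.

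Near Trgj1, Trgj2 and Trgj4 stood regions called in all 4 libraries. The region before Trgj1, from 19208535 to 19209418, had fold 2.80 and 2.94 in wild type and 2.45 and 2.3 in mutant. Between Trgj1 and Trgc1, the region from 19211317 to 19212525 had fold 2.06 to 2.65. Its counterpart between Trgj2 and Trgc2, from 19309034 to 19310366, had fold 2.35 to 2.68, and the region beyond Trgj4, from 19343178 to 19343432, had fold 1.35 to 1.71.

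All 4 C segments, which encode the constant part of the chain, overlapped peaks in every library. Trgc1 held 2 regions called in all 4 libraries, 19214261 to 19214514 with fold 1.55 to 2.28 and 19215027 to 19215389 with fold 1.7 to 2.41, and another region, 19212989 to 19213772, with fold 1.69 to 1.97 stopped 331 bp before it. Trgc2 overlapped 3 such regions, 19304951 to 19305422 (fold 1.41 to 1.71), 19306231 to 19306553 (1.67 to 2.45) and 19307223 to 19308679 (1.78 to 2.08). The last lay mostly outside Trgc2. Its wild type 2 and mutant 1 peaks stopped 412 and 140 bp from the segment. In wild type 1 the main peak stopped 362 bp from it, and only a separate peak of fold 1.69 reached it. All of these folds were under 2.5.

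Trgc3, commonly described as a pseudogene, had peaks of higher fold than Trgc1 or Trgc2 in each list. The region 1600 bp before it, from 19258924 to 19259285, had fold 6.86 and 7.44 in wild type and 7.04 and 7.20 in mutant, the second highest lowest fold of the window. A second region before Trgc3, 19259921 to 19260183, had fold 2.74 and 2.93 against 3.66 and 3.25. Within Trgc3, the region from 19261088 to 19261198 had fold 3.04 to 3.61 and that from 19262985 to 19263453 had 4.33, 4.56, 3.17 and 5.15. Between them, 19261850 to 19262106 was called in both wild-type libraries (2.57 and 3.07) and mutant 1 (2.24) and not in mutant 2. The −log10 q did not follow the fold in each list. In wild type 1 it was 4.65, 2.81 and 11.66 for these regions of Trgc3, against 8.41 and 8.9 in Trgc1. In mutant 2 it was 9.59 and 20.84 in Trgc3, against 8.2 and 4.67 in Trgc1.

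Trgc4 is the longest C segment in the annotation, at 7786 bp, and held 4 regions. The strongest, from 19345460 to 19346529, was a main peak of fold 4.09 and 3.97 with a small one of fold 2.24 and 2.1 in wild type, and 1 peak of fold 2.19 and 2.48 in mutant. The region from 19347137 to 19347540 was the last of the 3 that the mutant pair alone had, with fold 1.56 and 1.75 and −log10 q of 4.67 and 6.22. Next came 19348905 to 19349068, called in wild type (1.65 and 1.86) and mutant 1 (1.57), and 19350033 to 19351083, called in all 4 libraries with fold 2.1, 1.97, 1.91 and 2.83.

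**Figure D2:**
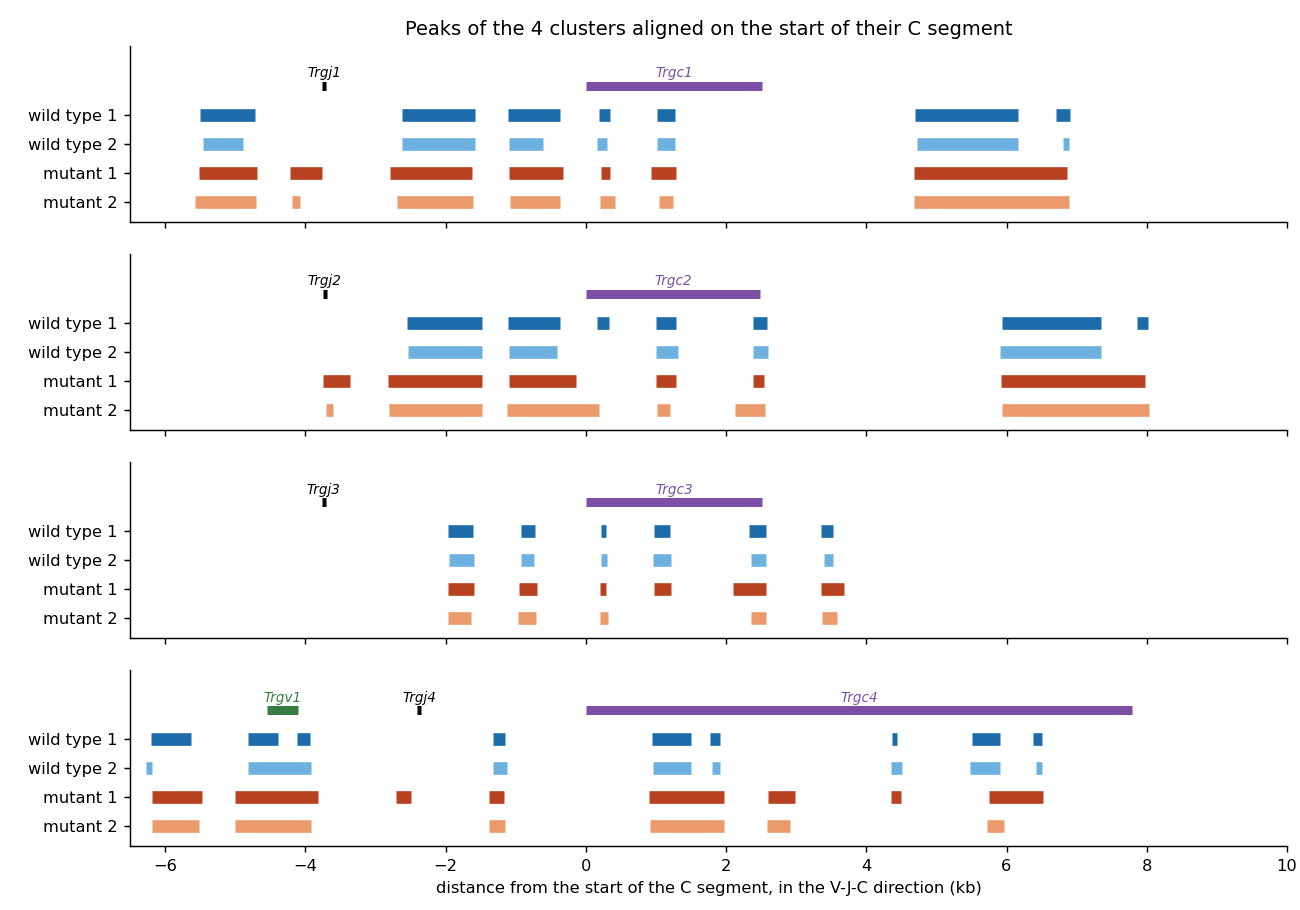
Peaks of each library (rows) at the 4 clusters, aligned on the start of the C segment and drawn in the V-J-C direction, so that the Trgc2 cluster is turned round; the horizontal axis is distance from the C start in kb. The clusters of Trgc1, Trgc2 and Trgc3 have their J segment at -3760, -3753 and -3768 bp and share peak positions before and within the C segment, while peaks next to Trgj1 and Trgj2 stand in the mutant rows.

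The clusters of Trgc1, Trgc2 and Trgc3 are known copies of each other. Between 6000 bp before and 3000 bp after the C start, 4 of 6 regions of the Trgc1 cluster overlapped in distance with a region of Trgc2, 4 of 6 with one of Trgc3 and 4 of 6 with one of Trgc4. For Trgc2 it was 4 of 5 with Trgc3 and 4 of 5 with Trgc4, and for Trgc3 1 of 5 with Trgc4. Any overlap of 1 bp or more counted. Those of Trgc2 with Trgc4 were of 3, 22, 217 and 323 bp, and those of Trgc1 with Trgc2 of 171 to 1209 bp. The overlap that unrelated positions would give was not computed, so the counts cannot tell whether like distances are limited to the copies. Counted from the C start in the direction of transcription, the region before Trgc1 spanned -2786 to -1578 bp and that before Trgc2 -2815 to -1483 bp, while the strong region before Trgc3 spanned -1961 to -1600 bp. Inside the C segment, regions spanned 924 to 1286 bp in Trgc1, 998 to 1320 bp in Trgc2 and 965 to 1221 bp in Trgc3. Near the far end of the segment, regions spanned 2129 to 2600 bp for Trgc2 and 2100 to 2568 bp for Trgc3, and Trgc1 had none. The mutant regions at Trgj1 and Trgj2 lay side by side on this scale and did not overlap, at -4217 to -3757 and -3741 to -3363 bp. How reads that match more than 1 copy were placed is not given in the sources used here, so which copy a peak belongs to is uncertain in these clusters.

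Beyond the C segments, where the enhancers of the locus are known to lie, the regions were long and called in all 4 libraries. The region past Trgc1, from 19218782 to 19221010, began 2164 bp beyond the segment. Its main peak had fold 4.75 and 4.56 in wild type, with a small second peak of fold 1.89 and 2.11, and 1 peak held the whole stretch in mutant with fold 3.0 and 2.99. The region past Trgc2, from 19299513 to 19301649, lay 3411 bp beyond the segment, with fold 4.78 and 4.46 in wild type and 3.73 and 3.58 in mutant. The region past Trgc4, from 19355422 to 19357638, lay 3079 bp beyond it, with fold 4.03 and 4.04 against 3.07 and 3.13. These 3 regions were 2137 to 2229 bp wide, the longest of the window.

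Trgc3 differed in having only a short region nearby, 842 bp beyond it. This region, from 19264239 to 19264572, had fold 2.72 and 3.29 in wild type and 3.96 and 4.36 in mutant. A strong region of 1443 bp followed at 8911 bp beyond Trgc3, from 19272308 to 19273750, with fold 7.49 and 6.08 in wild type and 4.98 and 5.10 in mutant. The small regions on its sides, 19271780 to 19271960 (fold 1.93, 2.56 and 1.93) and 19274860 to 19275104 (2.1, 2.24 and 2.37), were called in both wild-type libraries and mutant 1.

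Between this point and Trgc2 lay both regions called in the wild-type libraries alone. The first, 165 bp from 19284730 to 19284894, had fold 2.51 and 2.47 with −log10 q of 2.55 and 2.18. Mutant 1 had a weak peak of its own from 19285194 to 19285349 (fold 2.00). The second, 174 bp from 19294258 to 19294431, had fold 1.99 and 2.21 with −log10 q of 1.85 and 2.40. It stood beside the strong region from 19292970 to 19293878, called in all 4 libraries with fold 6.54, 6.61, 5.77 and 4.84. These 2 regions lay over 10 kb from any segment.

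**Figure D3:**
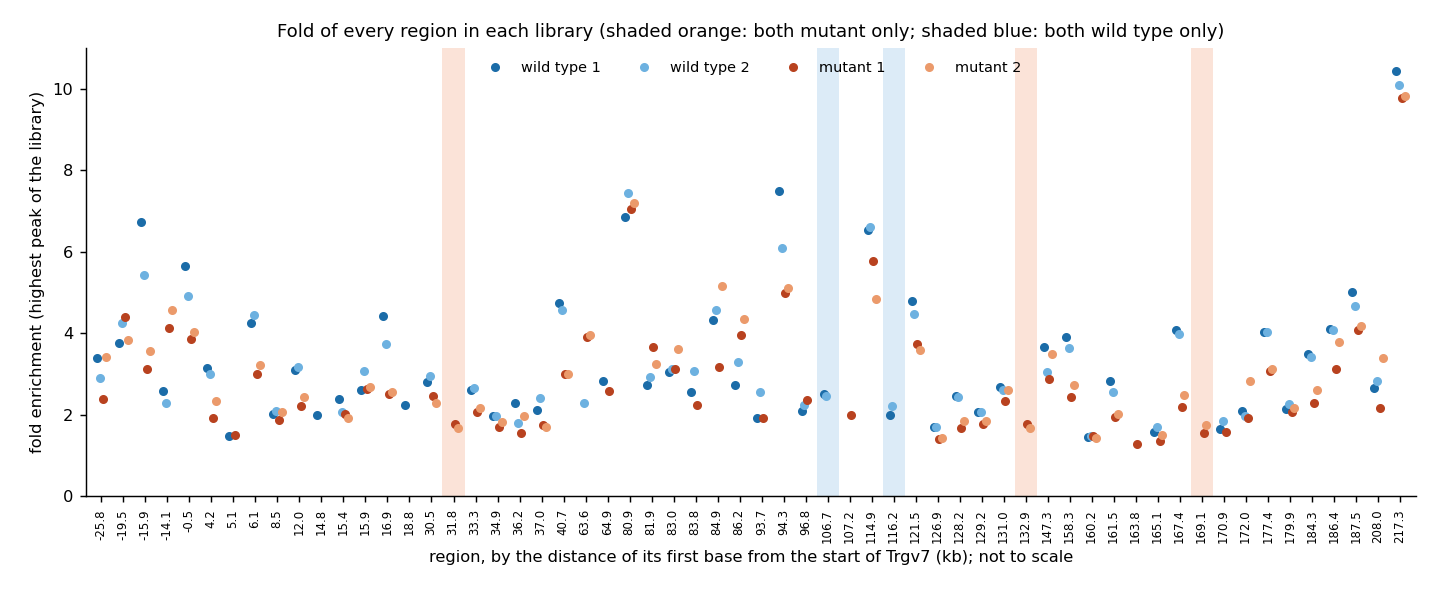
The authors' fold enrichment (vertical, highest peak of the library in the region) of all 60 regions in order along the locus (horizontal, labelled by kb from the start of Trgv7), with 1 point for each library that had a peak. Orange bands mark the 3 regions called in both mutant libraries alone, with fold 1.56 to 1.78, and blue bands the 2 called in both wild-type libraries alone, with fold 1.99 to 2.51.

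Besides the region past Trgc4, the flanks held 10 regions, each called in all 4 libraries. Before Trgv7, inside Gm31887, lay 19152210 to 19152475, which also overlaps Amph, a gene of synaptic vesicle uptake (fold 2.38 to 3.41), and 19158585 to 19159315 (3.77 to 4.41). They were followed by 19162110 to 19162979 (fold 6.72 and 5.42 in wild type, 3.12 and 3.57 in mutant) and 19163914 to 19164278 (2.59 and 2.3 in wild type, 4.12 and 4.58 in mutant).

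Stard3nl encodes a cholesterol-binding protein of late endosomes, and the annotation used gives no strand for it. The strongest region of the window lay at its end farther from Trgc4. This region, 19395326 to 19396294, also holds the start of Gm40827, and the promoter printed above lay wholly inside the peak of each library. Its fold was 10.43 and 10.08 in wild type and 9.78 and 9.82 in mutant, with −log10 q of 257.45 to 422.49. Within its own list it stood above 97.9% to 99.5% of peaks. Inside Stard3nl were 19357951 to 19358701 (fold 2.07 to 2.26), 19362295 to 19362779 (2.28 to 3.48), 19364431 to 19364766 (3.12 to 4.1), 19365504 to 19366065 (4.09 to 5.01) and 19385999 to 19386174 (2.16 to 3.39).

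The comparison of genotypes asked whether the locus was called differently in DN3 cells with mutated N-Me GATA sites. The wild-type pair had called 50 regions, of which 2 (4%, exact 95% interval 0.488 to 13.7) had no peak in either mutant list, against 15.0% over the genome. The mutant pair had called 48 regions, of which 3 (6.25%, 1.31 to 17.2) had no peak in either wild-type list, against 1.75% over the genome, a share that lies inside the interval. Both counts are small and moved when a library was left out. Without mutant replicate 1 the wild-type count was 8 of 53 (15.1%, against 20% over the genome), and without wild-type replicate 2 it was 4 of 54 (7.41%, against 25.4%). Without mutant replicate 2 the mutant count was 5 of 56 (8.93%, against 4.11%). With fold of 4 or more the wild-type order turned round, 6 of 13 (46.2%) against 19.7% over the genome. Each of those 6 regions was also called in both mutant lists, with peaks of fold under 4. When a library's peaks had to cover 50% of a region, 3 of 41 were called in the mutant pair alone (7.32%), close to 7.46% over the genome. Of these 3, the regions from 19163914 to 19164278 and from 19264239 to 19264572 held shorter peaks in both wild-type lists.

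**Figure D4:**
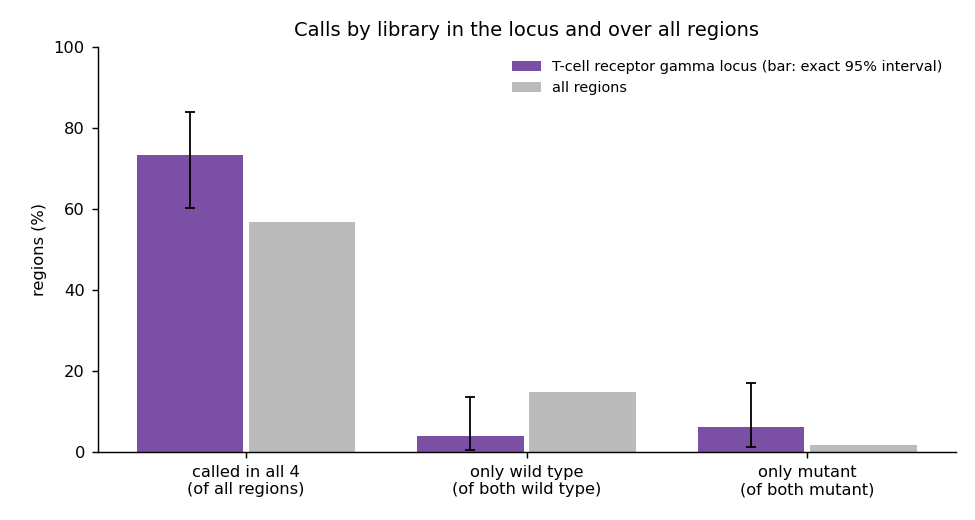
Share of regions (%, vertical, from 0) called in all 4 libraries, in the wild-type pair alone and in the mutant pair alone, for the locus (purple, with exact 95% binomial intervals) and for all regions of the genome (grey). The locus had 73.3% of regions in all 4 libraries against 56.7%, 4% against 15.0% only in wild type, and 6.25% against 1.75% only in mutant.

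Per library, the window had 60.5 ± 4.9 peaks in wild type and 52.5 ± 4.9 in mutant (SD, n = 2 each, exact two-sided permutation p = 0.333, the smallest that 2 against 2 libraries allow). The direction turned with equal numbers of peaks per list (a difference of -7.5) and at −log10 q of 5 or more (-2.5). When all lists were given the same shortest length and joining gap, the difference was 2.0 (exact permutation p = 0.667). Covered length went the other way, 26818 and 25213 bp in wild type against 35800 and 31522 bp in mutant (exact permutation p = 0.333). In the window the groups did not overlap in covered length, median peak width or peak number. Over the whole lists they did not overlap in peak number or median width either. Covered length of the whole lists did overlap, with 72.12 and 70.8 Mb in wild type and 72.3 and 69.27 Mb in mutant. At fold 4 or more the window's difference in covered length turned to 5429 bp more in wild type.

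Peak outlines differed in the direction of longer mutant peaks. In regions with exactly 1 peak in each library, 30 of 70 edges (42.9%, exact 95% interval 31.1 to 55.3) had both mutant edges outside both wild-type edges, against 30.4% over the genome. The reverse held for 11 of 70 (15.7%), against 20.4%. Left and right edges of a region were counted separately, and the interval takes them as independent, so it may be too narrow. The largest shift was at the region past Trgc4, which began at 19356008 and 19356006 in the wild-type lists but at 19355422 and 19355470 in the mutant lists. In 4 of 44 regions called in all libraries (9.09%, interval 2.53 to 21.7, against 3.88% over the genome) both wild-type lists had more peaks than either mutant list, and the reverse held for 0 of 44, against 0.0704% over the genome. The 4 were the Trgv4 region, the region past Trgc1 and 2 regions in Trgc4. The longer joining gaps of mutant lists move with both counts, and their part in them was not tested.

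The window was dense in peaks. It held more peaks than 97.5% to 99.5% of 10517 windows of the same width, whose median was 6 to 8 peaks. The longest stretch without a region, 20.7 kb, lay between the region past Trgc1 and the one before Trgv3. Between its annotated ends the Tcrg locus had 28.0 regions per 100 kb, against 14.2 for the beta locus (Tcrb) and 17.8 for the alpha and delta locus (Tcra), values not tested against each other. The shares called in all 4 libraries were 68.0%, 63.2% and 72.1%. The mutant lists alone held 3 of 38, 2 of 64 and 6 of 241 regions called in both mutant libraries. Each share lay above the 1.75% of the genome. Among regions that the wild-type pair had called, 2 of 40, 4 of 68 and 25 of 265 had no mutant peak. Each of these lay below the 15.0% of the genome, so neither order was limited to the gamma locus. These differences from the genome were not tested.

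**Figure D5:**
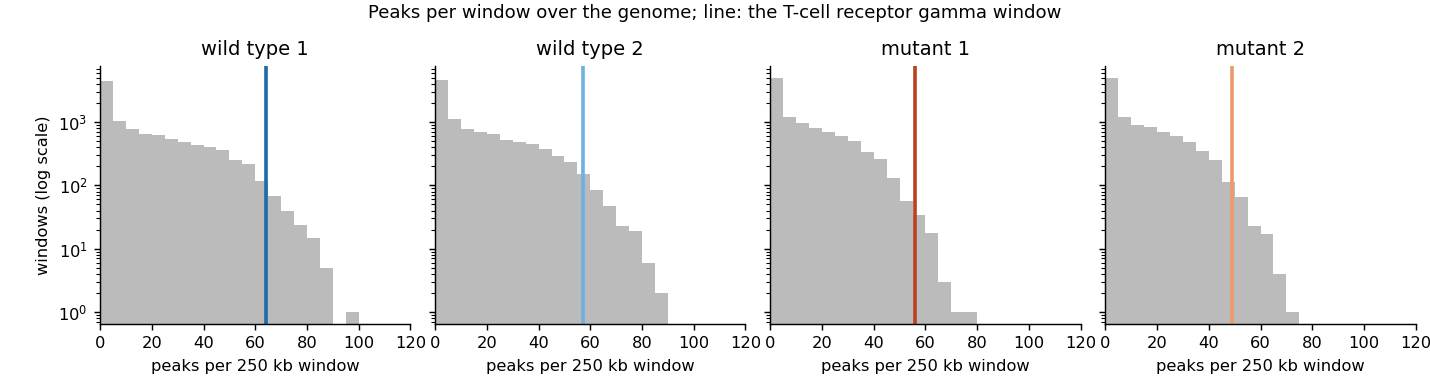
Number of windows (vertical, log scale) by peaks per 250 kb window (horizontal) over chromosomes 1 to 19 and X, in each library, with the window of the gamma locus as a coloured line. The line stands at 64, 57, 56 and 49 peaks, far out on the upper side of each distribution.

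Many peaks of the locus had a low fold for their list. Peaks of fold under 2 made up 26.6% and 15.8% of the window's peaks in wild type and 35.7% and 24.5% in mutant, against 6.4% to 9.8% of the whole lists. Their median −log10 q in the window was 2.46 and 4.13 in wild type and 4.53 and 4.27 in mutant. Over the whole lists it was 2.55 and 2.28 in wild type and 2.71 and 2.86 in mutant. The highest shares of peaks with fold under 2 stood in 3 stretches. From Trgv2 to Trgc4, 20 of 35 peaks of the 4 libraries had a fold under 2, from Trgc2 to Trgj2 10 of 18, and from Trgj1 to Trgc1 9 of 16. From Trgv7 to Trgv5 it was 8 of 27 and from Trgc3 to Trgc2 5 of 29. In the Trgj3 to Trgc3 stretch it was 0 of 19, and in the flanks before Trgv7 and after Trgc4 0 of 19 and 0 of 28.

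Genes that act on the locus were called in both genotypes. All 25 genes of a list were called at an annotated end (a peak at most 1 kb away) in 4 of 4 libraries, among them Il7r, Jak3 and Stat5b of interleukin 7 signalling, Rag1 and Rag2, Runx1, Gata3, and the gamma-delta factor Sox13. In each library 68.3% to 71.9% of 21887 protein-coding genes were called, so such a call is common. For the labelled cell type, all 10 DN3 markers (Ptcra, Il2ra and others) were called in each library, as were 8 of 8 gamma-delta and innate markers and 5 of 5 mature thymocyte markers. Neither Gata1 nor Hba-a1 of the erythroid list was called in any library, with 3 of 5 called. B cell markers had 3 or 4 of 5 called, and myeloid markers 2 of 5 in mutant and 4 of 5 in wild type. The part of other cells in the peaks of the locus was not tested.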

How the data were processed

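ATAC-seq peak lists of 4 DN3 libraries were used, 1 per sample. MACS2 2.1.1, SAMtools 1.7, Bowtie2 2.3.3.1 and cutadapt 1.16 are named in the submitters' processing notes, with the build mm10 (GRCm38). Not given in the sources used here are read filters, the placement of reads with several matches and any shift for the transposase. Each deposited peak has a score (10 times −log10 q, truncated), a fold enrichment, which is a ratio to local background, and −log10 p and −log10 q values made by the authors' caller within each list. Fold and −log10 values belong to their own list and are set side by side across lists, with no test and no order of the genotypes drawn from them. The depth is unknown, so no count model was fitted.

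From chromosomes 1 to 19, X and Y, peaks of the 4 lists that overlapped by 1 bp or more were merged into regions, and each region was called in the libraries whose peaks it held. Calls were counted beside the same counts over all regions. The direction of each cluster came from its V-J-C order, since the RefSeq gene table (GRCm38.p6) gives no strand, and exons were not annotated. Values per library were compared by an exact two-sided permutation test. Every region of the window was named. Alternatives were stricter −log10 q or fold, 50% cover, a common minimum length and joining gap, equal numbers of peaks, the segment span only, and leaving out each library. Pairing by replicate number is an alternative chosen after seeing the data. The members and lists were chosen with earlier results of these data known, and the counts of edges, split peaks, low folds and C-aligned distances were added after the peaks were seen. The region code was tested on simulated lists. Python 3.11.15, numpy 2.4.6, pandas 2.3.3, scipy 1.17.1 and matplotlib 3.10.9 were used.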

Additional observations from a re-analysis of the deposited data

How the results depend on the processing

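Of 62 recomputed values, 48 kept their direction or stayed within 1.5 times the reported count, 11 moved and 3 reversed. With −log10 q of 5 or more, 26 regions were called in all 4 libraries (57.8%, against 64.9% over the genome), 1 in the wild-type pair alone and 4 in the mutant pair alone (11.8% of 34, against 1.72% over the genome), and the difference in peak number was -2.5. With fold of 4 or more, 19 regions remained in all, 5 called in all 4 libraries (26.3%, against 54.0%), 6 in the wild-type pair alone (46.2% of 13, against 19.7%) and 1 in the mutant pair alone, and the difference in covered length was 5429 bp. Under both thresholds each region counted for 1 genotype alone held a peak of the other below the threshold. With 119023 peaks from each list, the wild-type pair alone had 0 regions and the mutant pair alone 7 (14.6%, against 6.99% over the genome). The difference in peak number was -7.5. Of the 7, all but those at Trgj1, Trgj2 and in Trgc4 held a wild-type peak in the full lists. When all lists were given the same shortest length and joining gap, the difference in peak number fell to 2.0. With 50% cover, 34 of 60 were called in all 4 libraries (56.7%, against 43.1% over the genome). Only in mutant, 3 of 41 were called (7.32%, against 7.46% over the genome). Of these 3, all but the one in Trgc4 held shorter peaks in both wild-type lists. Leaving out 1 library gave 2 to 8 regions for wild type alone, 3 to 5 for mutant alone, 44 to 48 in every library used and 58 to 61 in all, a difference in peak number of 4.5 to 11.5 and in covered length of -9784.5 to -5506.5 bp. The regions at Trgj1 and Trgj2 lost their mutant-only call with −log10 q of 5 or more, with fold of 4 or more and with 50% cover, and the one in Trgc4 lost it under both thresholds. Regions near the q threshold of a list depend on depth, which is unknown. Pairing the libraries by replicate number (replicate block, added after the data were seen) left the differences at 8.0 peaks and -7645.5 bp, each with an exact two-sided sign-flip permutation p of 0.5, the smallest that 2 pairs allow. The labels do not say that the numbers mark a shared source.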
